A study of Homo sapiens with 2 samples.

Results

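Cadherins and protocadherins are described here in BT549, an established line of triple-negative breast cancer cells that look mesenchymal. The set holds every protein-coding gene of GENCODE release 29 whose symbol starts with CDH and a digit, CDHR or PCDH. It comes to 94 of the 58735 genes in the deposited tables: 18 classical cadherins, 5 other CDH genes, 5 CDHR genes, 13 non-clustered protocadherins and 53 clustered protocadherins. Messenger RNA was sequenced from 1 culture with a control hairpin (scrambled) and from 1 culture with a short hairpin RNA against the salt-inducible kinase SIK2 (shSIK2). Both cultures had received the ligand Wnt3a for 2 h, so no value here shows the response to Wnt3a. The sources used here do not give how many hairpins or clones stand behind the shSIK2 culture. With 1 library per group there is no spread between replicates, no test and no p-value. The comparison asks how the expression of these adhesion genes differs between a culture with less SIK2 and its control.

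Cadherins are surface proteins whose repeated extracellular domains bind calcium and hold neighbouring cells together. The tail of a classical cadherin binds beta-catenin and p120-catenin, and alpha-catenin links that complex to actin, so cadherins also hold beta-catenin, the transducer of canonical Wnt signals, at the membrane. Mesenchymal breast cancer lines are known for lost E-cadherin and for N-cadherin or cadherin-11 in its place. Protocadherins have a different tail that binds no beta-catenin. The clustered ones stand in tandem arrays on chromosome 5, where a cell uses a few alternative promoters, and are best known from neurons.

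The libraries held 18019225 (scrambled) and 16347399 (shSIK2) reads assigned to genes. SIK2 itself had 1312 and 599 reads, a 2.19-fold lower count in the shSIK2 library. Of 6 mesenchymal markers of the line all passed 1 FPKM (reads scaled for gene length) in both libraries, with 9.82 to 283 FPKM, whereas ESR1, PGR, FOXA1 and EPCAM stayed at or below 0.13. GATA3, listed as absent in such cells, stood at 11.5 and 18.6 FPKM, which goes against that list. None of 5 endothelial markers reached 1 FPKM, nor did the leukocyte markers PTPRC, CD14, CD3E and LYZ; PECAM1, CLDN5, CD3E and LYZ had no reads. The neural markers SYT1 (10.1 and 5.84 FPKM) and SNAP25 (0.68 and 2.93) did, while the neuronal marker RBFOX3 had no reads. Level differences between such cultures cannot be split into fewer cells of a kind and less RNA per cell.

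Most of the family had few reads or none. No read was found for 21 of the 94 genes, 51 had fewer than 20 reads in both libraries, and 22 had at least 20 in 1 of them. Measured, meaning at least 1 FPKM in the higher library, were 16 genes. The lowest of them was PCDHGA9 with 1.04 FPKM, and the nearest below was PCDH9 with 0.86. On the scale of log2(FPKM + 0.1), a level 2-fold or more above the control was found in shSIK2 for 5 of the 16 (CDH10, CDH24, CDH3, PCDH18 and PCDHGC3), where 11% of all 12866 measured genes were. At least 2-fold lower were 2 of the 16 (CDH2 and PCDH8), where 8.28% of all measured genes were. For 6 of the 16 only 1 library reached 1 FPKM: CDH2 and PCDH8 in scrambled, CDHR3, PCDHB2, PCDHGA6 and PCDHGA9 in shSIK2. Those genes had to lean toward the library that let them pass. Over all 73 members with reads, 12 (16.4%) were 2-fold higher, where 16.02% of the 25018 genes with reads were. Without the filter the higher shares were thus close, but 2 members (2.74%) were 2-fold lower, where 10.5% of those genes were.

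**Figure D1:**
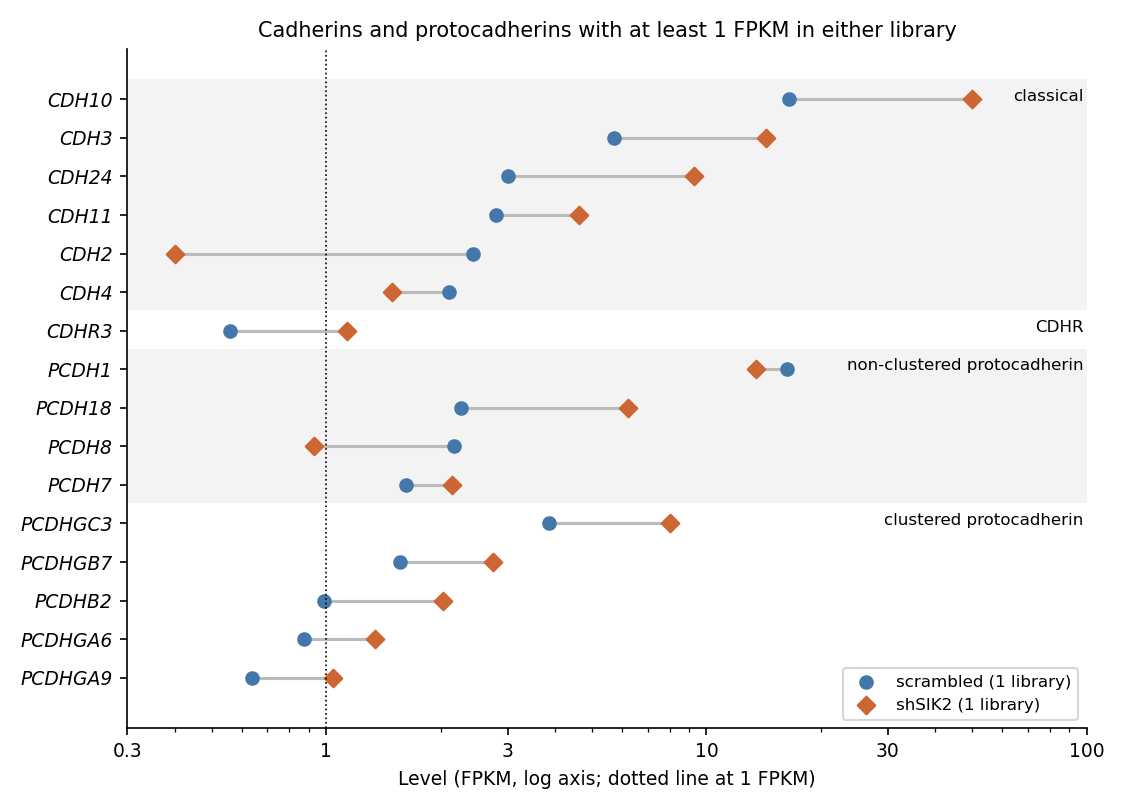
Level (FPKM, log axis) of the 16 measured members in the scrambled library (circles) and the shSIK2 library (diamonds), 1 library each, by class. CDH10 has the highest level in both libraries, close to that of PCDH1 in scrambled, and CDH2 shows the widest gap toward the scrambled library.

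Type I classical cadherins differed in opposite directions. CDH3 (P-cadherin, a cadherin of basal epithelial cells; ENSG00000062038, GRCh38 chromosome 16, 68636189 to 68722616) had a level of 5.72 FPKM in scrambled and 14.4 in shSIK2. Its 612 and 1536 reads are a 2.51-fold difference (95% counting interval 2.28 to 2.76), higher in shSIK2. Exons of the gene AC126773.2 cover 11.1% of the exon bases of CDH3, and whether the reads carry strand is not known. CDH2 (N-cadherin, the type I cadherin of neural and mesenchymal cells; ENSG00000170558, chromosome 18, 27950966 to 28177446) went the other way, with 2.44 FPKM against 0.40. Its reads were 207 and 34, a 6.09-fold lower count in shSIK2 (4.22 to 9.03), and 1.52% of all measured genes had a ratio at least as low. CDH4 (R-cadherin, known from retina and brain) had 2.10 and 1.49 FPKM, 1.41-fold lower (1.16 to 1.71).

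CDH1, which encodes E-cadherin, the main epithelial cadherin, was near the limit of detection. Its reads numbered 11 in scrambled and 2 in shSIK2, or 0.10 and 0.019 FPKM. The count ratio of 5.5 has an interval from 1.20 to 51.1, so its size is not resolved at this depth. CDH3 lies 14.6 kb upstream of CDH1 on the same strand, so these neighbouring cadherin genes stood at very different levels in both libraries. CDH15 (M-cadherin of muscle) had 0 and 3 reads.

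Among type II classical cadherins, 3 of 13 were measured, and each of the 3 had more reads in the shSIK2 library. CDH10 (a type II cadherin known from brain; ENSG00000040731, chromosome 5, 24487100 to 24644978) had the highest level of the whole set, at 50.003 FPKM in shSIK2. In scrambled its 16.51 FPKM stood close to the 16.3 of PCDH1. The 1037 and 3141 reads of CDH10 differ 3.03-fold (2.82 to 3.25). Among protein-coding genes its level ranked 2776th in scrambled and 596th in shSIK2, and 5.36% of measured genes had a ratio at least as high. CDH24 (ENSG00000139880, chromosome 14, 23047062 to 23057538), which binds catenins as other type II cadherins do, had 3.0 and 9.25 FPKM. Its 193 and 595 reads are a 3.08-fold difference (2.62 to 3.65). After the dependence of the ratio on GC content and exon length had been subtracted, its log2 ratio of 1.59 was 1.06, while that of CDH10 went from 1.59 to 1.90. CDH11 (OB-cadherin, the cadherin of osteoblasts and of mesenchymal cells; ENSG00000140937, chromosome 16, 64943753 to 65126112) had 2.80 and 4.62 FPKM. Its 642 and 1061 reads differ 1.65-fold (1.5 to 1.83), short of 2-fold as deposited. Its log2 ratio of 0.70 became 1.003 after the same subtraction.

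CDH11 is also made by fibroblasts, and fibroblast markers were higher in the same library. Their summed level over 5 genes (PDGFRA, PDGFRB, DCN, LUM and COL1A1) was 4.18 FPKM in scrambled and 10.01 in shSIK2; each of the 5 was higher in shSIK2, and 2 reached 1 FPKM. DCN had 3 and 24 reads and LUM 0 and 14. The part of these markers in the level of CDH11 was not tested. The remaining 10 type II cadherins held at most 2 reads in a library, and 8 of them none at all, among them CDH5, the endothelial VE-cadherin, and CDH6.

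The make-up of the classical group by length-scaled level was therefore dominated by CDH10. CDH10 made up 50.5% of the summed FPKM of the 18 classical cadherins in scrambled and 62.3% in shSIK2. CDH3 held 17.5% and 17.9%, and CDH24 9.19% and 11.5%. N-cadherin went from 7.46% to 0.50%. Summed over all 18 genes the level was 32.7 FPKM in scrambled and 80.2 in shSIK2.

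Cadherins without a classical tail and cadherin-related genes were scarce. CDH13 (T-cadherin, held to the membrane by a lipid anchor), CDH16, CDH17, CDH23 and CDH26 had 13 reads in all in scrambled and 7 in shSIK2, and none was measured. Of the CDHR genes CDHR3, known as the airway receptor of rhinovirus C, was measured, with 0.56 and 1.13 FPKM. Its 68 and 138 reads differ 2.03-fold (1.51 to 2.76); on the log2(FPKM + 0.1) scale the ratio was 0.91, and 1.03 with both libraries scaled to equal totals. CDHR5, a protein of the intestinal brush border, had 33 and 18 reads, 1.83-fold lower in shSIK2 (1.003 to 3.46).

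Non-clustered protocadherins showed no common direction. PCDH1 (protocadherin-1, found in airway epithelium; ENSG00000156453, chromosome 5, 141853111 to 141879246) was the most abundant, at 16.3 and 13.5 FPKM. Its 1648 and 1370 reads are a 1.20-fold lower count in shSIK2 (1.12 to 1.29), and the log2 ratio of -0.26 became -0.13 at equal totals. PCDH18 (ENSG00000189184, chromosome 4, 137518918 to 137532494) had 2.27 and 6.23 FPKM. Its 260 and 715 reads are a 2.75-fold higher count in shSIK2 (2.38 to 3.18). PCDH8 (ENSG00000136099, chromosome 13, 52842889 to 52848641), which drives the internalisation of N-cadherin at synapses, was the member that differed most the other way, at 2.17 and 0.93 FPKM. Its 192 and 82 reads are a 2.34-fold lower count (1.80 to 3.07), and with a pseudocount of 1 its log2 ratio was -0.72, short of 2-fold.

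The other non-clustered genes with at least 20 reads differed less or were rare. PCDH7 had 1.62 and 2.14 FPKM, 1.32-fold higher in shSIK2 (1.15 to 1.53). PCDH9, at 0.63 and 0.86 FPKM, was 1.36-fold higher (1.18 to 1.57). PCDH10, which acts on the WAVE actin complex, had 34 and 68 reads, 2-fold higher (1.31 to 3.11), and PCDH17 had 40 and 29, 1.38-fold lower (0.83 to 2.31). The reads of PCDH11X (0 and 19) are uncertain, since the X and Y chromosomes carry near-identical copies of this gene. PCDH20 had 2 reads in each library, but 95.8% of its exon bases also belong to the gene model AL592490.1. Its level is thus not resolved.

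The clustered protocadherins lie in 3 arrays on chromosome 5, in the order alpha, beta, gamma, between 140786136 and 141512981. In the alpha and gamma arrays each gene is a large variable exon, which encodes the extracellular part, spliced to 3 constant exons that all genes of the array share. The gamma constant exons lie at 141494807 to 141494865, 141505393 to 141505481 and 141510947 to 141512979, and add up to 2181 bases. The junctions of the 4 measured gamma genes are shown because a read across one names its gene by the variable side, whereas a read wholly within the constant exons does not. In each, read 5′ to 3′ on the plus strand of GRCh38 from GENCODE transcripts, the last 24 bases of the variable exon are in lower case and the first 24 of the constant exon in capitals:
PCDHGA6: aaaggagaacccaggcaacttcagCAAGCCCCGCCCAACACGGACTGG
PCDHGA9: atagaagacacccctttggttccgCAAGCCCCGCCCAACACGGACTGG
PCDHGB7: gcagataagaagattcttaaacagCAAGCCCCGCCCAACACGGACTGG
PCDHGC3: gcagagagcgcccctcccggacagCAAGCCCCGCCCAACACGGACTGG

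Exon bases that also belong to any other gene made up a median of 43.9% of the exon length of a gamma gene. That share was 49.4% for an alpha gene and 5.14% in the beta array, whose genes are mostly single exons. In the beta array the overlap is with other gene models such as AC244517.5, not with constant exons. PCDHGA3 and PCDHGB3 carry the gamma constant exons and were listed at 0 in both libraries, so reads lying wholly in those exons were not counted for every gene of the array. FPKM over the full exon length then understates alpha and gamma levels. Over unshared exon bases PCDHGC3 stood at 6.45 and 13.4 FPKM in place of 3.86 and 8.03. The ratio of reads between libraries is not changed by this length.

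Gamma genes gave most of the reads of the arrays. PCDHGC3 (ENSG00000240184, chromosome 5, 141475947 to 141512979), a C-type gene that many cell types outside the brain also use, was the highest, with 360 reads in scrambled and 749 in shSIK2, a 2.08-fold difference (1.83 to 2.37). Its log2 ratio of 1.04 passed 2-fold as deposited, but was 0.97 after the same subtraction. PCDHGB7 had 133 and 234 reads (1.76-fold, 1.42 to 2.19), PCDHGA6 119 and 183 (1.54-fold, 1.21 to 1.95) and PCDHGA9 52 and 85 (1.63-fold, 1.14 to 2.36). PCDHGA7, below 1 FPKM, had 21 and 55 reads (2.62-fold, 1.56 to 4.56). Each of these 5 genes had more reads in shSIK2.

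The gamma array kept a narrow set of genes in both libraries. The 4 measured genes held 89.7% of the 740 gamma reads in scrambled and 91.9% of the 1362 in shSIK2. PCDHGC3 alone held 48.6% (exact binomial 95% interval 45.0 to 52.3) and 55.0% (52.3 to 57.7). The other 18 gamma genes had 76 and 111 reads together; of all 22 genes, 11 had more reads in shSIK2, 7 fewer, 2 the same number and 2 none. PCDHGB2 was the clearest against that direction, with 14 and 4 reads (3.5-fold lower, 1.10 to 14.6), chosen after its values were seen.

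In the beta array PCDHB2 (ENSG00000112852, chromosome 5, 141094578 to 141098703) was measured, with 70 and 144 reads or 0.99 and 2.03 FPKM. The difference was 2.06-fold (1.54 to 2.78), at a log2 ratio of 0.97 with the pseudocount and 1.10 at equal totals. Exons of AC244517.5 cover 15.0% of its exon bases. PCDHB9 had 10 and 39 reads (3.9-fold, 1.91 to 8.76) and PCDHB10 7 and 15 (2.14-fold, 0.82 to 6.21). Of 16 beta genes 11 had more reads in shSIK2, 3 fewer and 2 none; 4 of the 11 went from 0 reads to between 1 and 9. PCDHB2 held 63.1% (53.4 to 72.0) and 56.7% (50.4 to 62.9) of the 111 and 254 beta reads.

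The alpha array was all but silent. Its 15 genes had 18 reads in scrambled and 20 in shSIK2, and 6 had none. The most reads over both libraries fell on PCDHA11 (4 and 4), PCDHA10 (6 and 1), PCDHA12 (3 and 3) and PCDHAC1 (1 and 5), the last pair equal in sum. No gene reached 0.05 FPKM. At such counts no difference between the libraries is detectable.

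**Figure D2:**
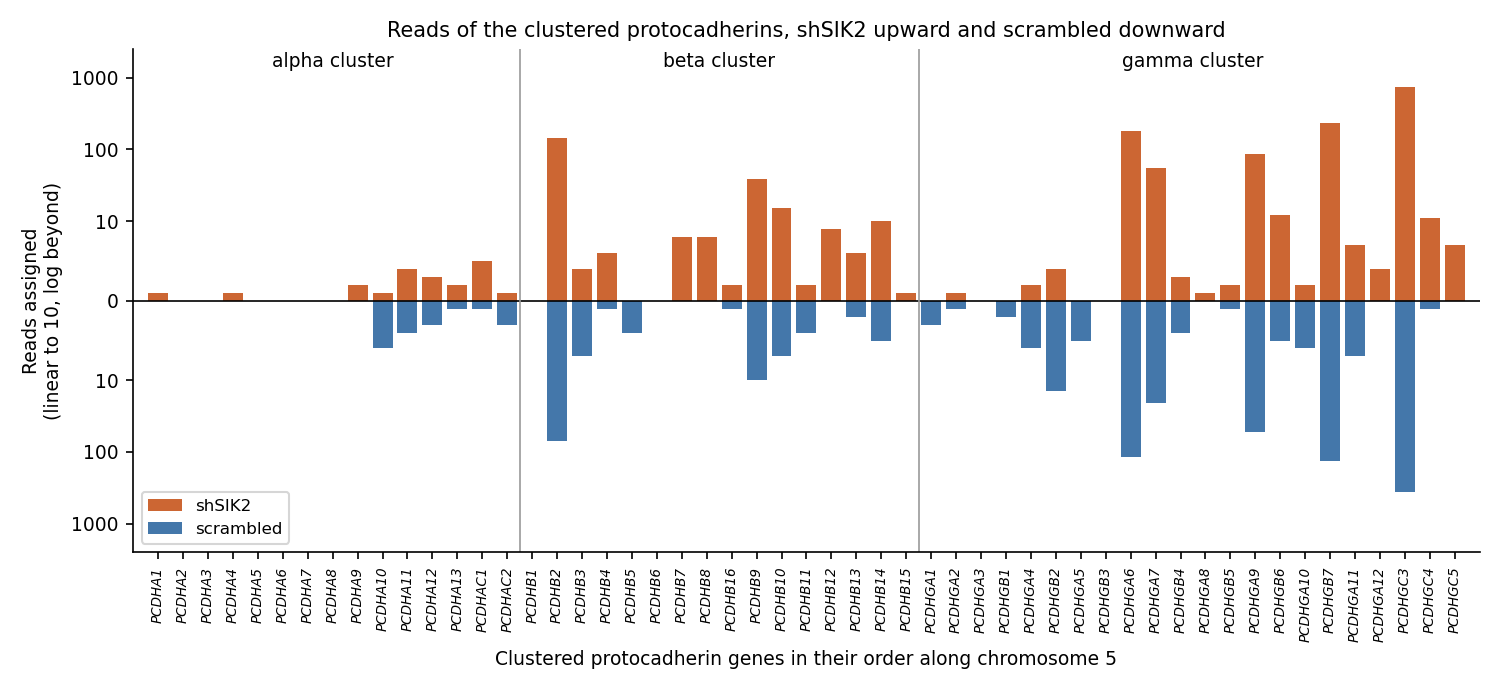
Reads assigned to each of the 53 clustered protocadherin genes in their order along chromosome 5, shSIK2 upward and scrambled downward, 1 library each (axis linear to 10 reads and logarithmic beyond). The alpha genes stay under 10 reads, and PCDHB2, PCDHGA6, PCDHGB7 and PCDHGC3 stand out in both libraries.

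Clustered promoters are known for a conserved box with the core CGCT, close to where CTCF binds. The boxes of the measured genes are shown beside those of PCDHGB6 and PCDHGA3, which had few or no reads. They come from RefSeq promoter windows on GRCh38.p14 (250 bases before to 50 after the start), plus strand, with the best match to GGTGGCGCTG (beta) or CGCTGTNNNCCA (gamma) in capitals. Each lies 5′ of the start that GENCODE gives:
PCDHB2: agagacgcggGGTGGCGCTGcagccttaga
PCDHGA6: tctaagcgtCGCTGTTGACCAacctgggca
PCDHGA9: tctgagcgcCGCTGTTGATCAactctaagc
PCDHGB7: tctgggcgcCGCCGTCGGCCAgtgcagagc
PCDHGC3: tctgtgtgcCGCTGTCGGCCAatgaagacg
PCDHGB6: tctgggcgcCGCTGTCGGCCAgtgcagagc
PCDHGA3: tcttagtgtCGCTGTTGACCActcaagaag

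These windows lie at chr5:141094545-141094574, chr5:141373842-141373871, chr5:141402721-141402750, chr5:141417590-141417619, chr5:141475887-141475916, chr5:141407931-141407960 and chr5:141343774-141343803, in the order shown. Each motif is the word around CGCT, of a shape chosen after the promoters were read, that most genes of the beta or gamma array hold. The matches of PCDHB2, PCDHGA6, PCDHGC3, PCDHGB6 and PCDHGA3 are exact, and positions are counted from the first base of the motif in what follows. PCDHGA9 carries C10T. PCDHGB7, with 133 and 234 reads, carries T4C in the core, whereas PCDHGB6, with 5 and 12 reads, and PCDHGA3, with 0 in both, match throughout. Among the few genes shown, exact matches thus stood both in measured genes and in genes with few or no reads. Whether the box goes with reads over all gamma genes was not tested. On either strand CGCTGTNNNCCA was found for 12 of 20 gamma, 6 of 13 alpha and 0 of 14 beta genes with a window, and in 0.31% of all 34943 windows. GGTGGCGCTG was found for 12 of 14 beta genes and 0.28% of all windows. Both motifs hold the core CGCT, which alone is in 69.9% of all windows.

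Genes around the arrays gave a measure of the stretch as a whole. Of 36 protein-coding neighbours within 1 Mb that are no protocadherins, 27 were measured, 3 of them (NDUFA2, TMCO6 and RELL2; 11.1%) at least 2-fold higher in shSIK2 and 0 lower, a share like the 11% of all measured genes. Their median log2 ratio was 0.30, where that of all measured genes was -0.11. TAF7, a TFIID subunit that lies inside the stretch between the beta and gamma arrays, had 46.0 and 33.1 FPKM, a log2 ratio of -0.47. The part of the neighbourhood in the ratios of the protocadherins was not tested.

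Set side by side, the measured classical cadherins and clustered protocadherins had medians further above that of all genes than non-clustered protocadherins did. Among 6 measured classical cadherins 3 stood 2-fold or more above the control and 1 below it, and the median log2 ratio was 1.01, in a range from -2.34 to 1.59. The 5 measured clustered protocadherins ran from 0.57 to 1.04 with a median of 0.78; 1 was at least 2-fold higher and 0 lower. The 4 measured non-clustered protocadherins, 1 higher and 1 lower, had a median of 0.06, between -1.14 and 1.42. That median rests on few genes: it was 0.38 with the filter at 0.5 FPKM, which admits PCDH9, and 0.58 at 5 FPKM, where those of all genes were -0.07 and -0.20. Classical cadherins thus spread widely in both directions, while all 5 measured clustered genes stood above 0 within a narrow range. Of these 5, 3 passed the filter through the shSIK2 library alone. With the filter removed, the medians of the genes with reads were 0.39 (classical), 0.15 (clustered) and 0.10 (non-clustered), where that of all genes was 0. The clustered and non-clustered medians were then close.

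Summed reads were led by single genes. Classical cadherins had 2967 and 6563 reads, a ratio of 2.21 of shSIK2 over scrambled (2.12 to 2.31, counting error only), and without CDH10 1930 and 3422, a ratio of 1.77 (1.68 to 1.88). Clustered protocadherins had 869 and 1636 reads, a ratio of 1.88 (1.73 to 2.05), and 1.74 (1.56 to 1.95) without PCDHGC3. Without their leading genes both classes thus stood at like ratios. Non-clustered protocadherins had 2865 and 3208 reads, a ratio of 1.12 (1.06 to 1.18). Of these, PCDH1, the leading gene of that class, held 1648 and 1370. No sum was taken without PCDH1, so the 1.12 is not comparable with the 1.77 and 1.74. Among clustered genes with reads but fewer than 20 in both libraries, 20 of 36 (55.6%) had more in shSIK2 and 12 (33.3%) fewer. That is close to the 54.1% and 38.0% of all 3175 such protein-coding genes, so these rare genes show nothing beyond the background.

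**Figure D3:**
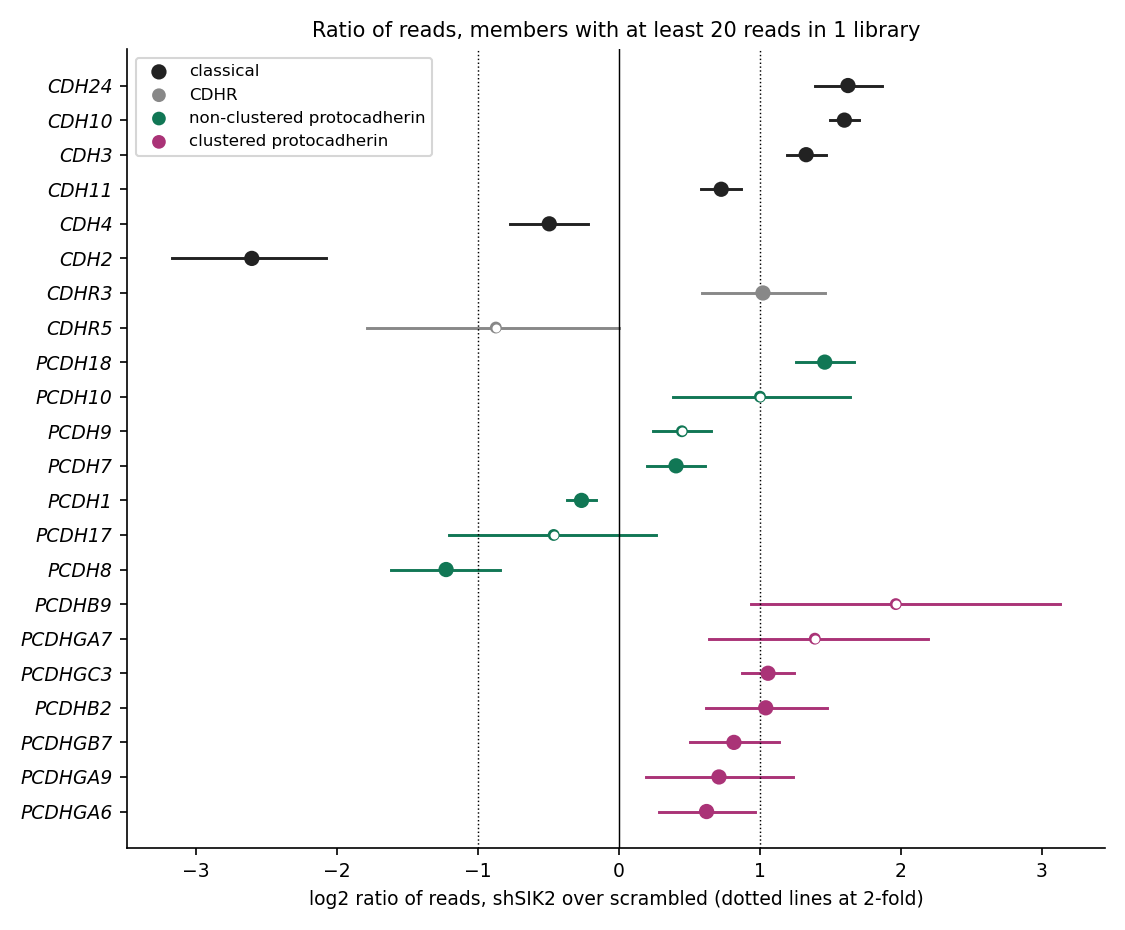
Log2 ratio of reads, shSIK2 over scrambled, of the 22 members with at least 20 reads in 1 library, with exact 95% counting intervals; filled points are measured, open centres lie below 1 FPKM. All 7 clustered genes lie right of 0, and CDH2 and PCDH8 lie farthest left among measured genes. Of the clustered genes PCDHB9 (10 and 39 reads) reached 20 reads only in shSIK2 and so had to lie right of 0. PCDHGB2 (14 and 4 reads) is not shown.

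Genes that work with cadherins were examined in 7 lists, whose counts are read against the 11% of all measured genes that were 2-fold higher and the 8.28% that were lower. Of the 9 measured catenins and armadillo partners none differed by 2-fold, with a median log2 ratio of -0.09. CTNNA1 (alpha-catenin, the link to actin) had 106 and 64.2 FPKM, 1.64-fold lower in shSIK2 (1.60 to 1.69). CTNNB1 (beta-catenin) had 19.99 and 19.4 FPKM, 1.03-fold lower (0.99 to 1.08), and CTNND1 (p120-catenin) 19.0 and 17.8, 1.07-fold lower (1.01 to 1.12). JUP (plakoglobin) had 2.24 and 2.03 FPKM, 1.10-fold lower (0.89 to 1.37). These 4 genes differed less than CDH10, CDH3 or CDH2 did.

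Scaffolds of neighbouring junctions were lower. Of 5 measured nectin, afadin and tight junction genes 2 (40%) were at least 2-fold lower and 0 higher, with a median of -0.80. TJP1 (ZO-1, a junction scaffold) had 8.85 and 2.54 FPKM, 3.48-fold lower (3.14 to 3.85). AFDN (afadin, which ties nectins to actin) had 7.55 and 3.50 FPKM, 2.16-fold lower (1.99 to 2.35), at a log2 ratio of -0.95 at equal totals.

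Other members of the cadherin superfamily were mixed, with 2 of 8 measured genes (25%) at least 2-fold higher, 0 lower and a median of 0.13. CELSR2 (a planar polarity cadherin) had 129 and 642 reads, 4.98-fold higher (4.11 to 6.06), and reached 1 FPKM only in shSIK2 (0.61 and 3.03). The reads of CLSTN3 (calsyntenin-3) were 308 and 784, 2.55-fold higher (2.23 to 2.91). DSG2, the desmosomal cadherin, had 18.3 FPKM in both libraries.

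Among 9 measured EMT transcription factors 2 (22.2%) stood 2-fold or more above the control and none below; with totals made equal 4 did (44.4%), against 13.7% of all measured genes. Their median was -0.01. SNAI1 (a repressor of E-cadherin) had 12 and 106 reads, 8.83-fold higher (4.85 to 17.6), and reached 1 FPKM only in shSIK2 (0.41 and 3.66). TWIST2 had 151 and 312 reads, 2.07-fold higher (1.70 to 2.53). Among 15 measured genes of cadherin processing and turnover 2 (13.3%) were higher and 1 (6.67%) lower, shares near those of all measured genes (median 0.11). The matrix proteases MMP3 (195 and 777 reads, 3.98-fold, 3.40 to 4.69) and MMP9 (17 and 49, 2.88-fold, 1.63 to 5.34) were the higher ones; MMP9 reached 1 FPKM only in shSIK2 (0.42 and 1.22). MDM2, a ubiquitin ligase, was 2.37-fold lower (2.16 to 2.59).

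Genes of protocadherin promoter choice and cluster chromatin had 14 measured members, 0 of them 2-fold apart, with a median of -0.45. The remaining gene of the 15 listed, DNMT3B, lay below 1 FPKM, with 11 and 56 reads, 5.09-fold higher in shSIK2 (2.64 to 10.8). CTCF, which folds the arrays, had 7.55 and 5.35 FPKM, 1.41-fold lower (1.29 to 1.53). Of 14 measured genes of the WAVE complex and of kinases below protocadherins 1 (7.14%) was at least 2-fold lower, a share near that of all measured genes, and 0 higher, with a median of -0.28. That gene was FYN, a Src family kinase, with 215 and 46 reads, 4.67-fold lower (3.39 to 6.57), which reached 1 FPKM only in scrambled (1.69 and 0.36).

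**Figure D4:**
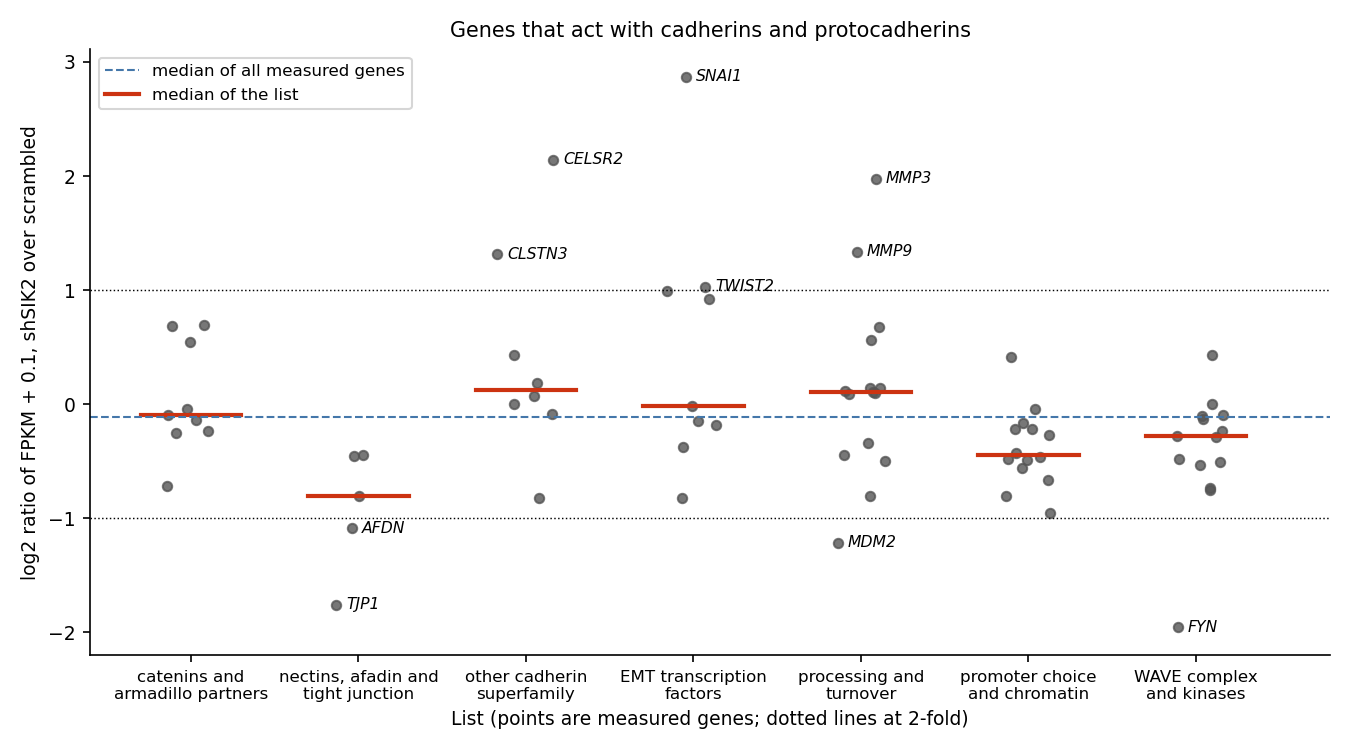
Log2 ratio of FPKM + 0.1, shSIK2 over scrambled, of each measured gene in 7 lists, with the list's median (red bar) and the median of all measured genes (dashed line at -0.11); genes past 2-fold are named. SNAI1 is the highest point and FYN the lowest, and no catenin lies past 2-fold.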

How the data were processed

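RNA was extracted with Trizol and sequenced on Illumina libraries, per the labels' protocols; the sources used here do not give strandedness. The submitters' processing notes name the aligner HISAT2 2.0.5 and the build hg18. The 2 deposited tables hold FPKM for 58735 Ensembl genes, per the file headers; the sources used here give no counter, annotation or formula. All identifiers matched GENCODE release 29 (GRCh38), which gave symbols, exon lengths and coordinates; the build aligned to is not settled.

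FPKM times exon length gave whole multiples of 1 step (58.3 in both tables) for 100% of values above 0 (tolerance 0.001). These multiples were taken as reads. Both tables share the divisor, so values are not scaled to each library's total; equal totals add 0.14 to a log2 ratio (1.10-fold) and shift the overall median from -0.11 to 0.03. Folds are ratios of reads as deposited with exact Clopper-Pearson 95% intervals; the reads carry no molecular identifiers and may be copies, so these intervals cover counting error only, and 0 reads allow up to 3. Log2 ratios use a pseudocount of 0.1 FPKM, which understates low genes.

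Named were SIK2; CDH1, CDH2, CDH3 and CDH11; members with at least 1 FPKM or 20 reads in the higher library; the 3 genes with most reads in each array; up to 4 list genes past 2-fold, and CTNNA1, CTNNB1, CTNND1, JUP and CTCF. Others named were chosen after their values were seen. Members, classes and lists were chosen with earlier results of these data known. A further leukocyte marker is not reported here. Alternatives varied the pseudocount, filter, scaling, exon length, fold, interval and GC and length trend (20 bins each, GC content from transcript sequences). RefSeq promoter windows matched 74 of the 94 members. Read recovery, intervals, the 2-fold rule and trend removal were tested on simulated data. Scripts ran in Python 3.11.15 with scipy 1.17.1, numpy 2.4.6, matplotlib 3.10.9 and pandas 2.3.3.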

Additional observations from a re-analysis of the deposited data

How the results depend on the processing

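With 1 library per group no leave-out check and no replicate check exist, and the low depth of single genes limits ratios below about 20 reads. Of 112 recomputed counts and medians of classes, 87 stayed within 1.5 times of the count or within the counting interval. Of 108 recomputed ratios of 23 single members, 89 stayed within the counting interval and 19 moved out of it. A change of sign was counted only for members called 2-fold higher (5) or lower (2), and 0 were found. The cause of each shift below was not tested, apart from fewer or more genes under another filter. Of all members, 12 (16.4%) were 2-fold higher with no filter beyond 1 read, against 16.02% of all genes. At 1.5-fold 10 (62.5%) were higher, against 19.7%. With a pseudocount of 1 or the counting interval beyond 2-fold 1 (CDH2, 6.25%) was lower, against 4.83% and 3.94% of all genes. With the filter at 5 FPKM 0 were lower, against 7.19%. At 5 FPKM 0 classical and 0 non-clustered members were lower, and of the latter 0 also with a pseudocount of 1 and by the counting interval. Of 5 measured clustered members, 2 were 2-fold higher with a pseudocount of 0.01 and at equal totals (all genes 11.5% and 13.7%). With a pseudocount of 1 and by the counting interval 0 were (all genes 5.91% and 5.42%), and 4 were 1.5-fold higher (all genes 19.7%). At 0.5 FPKM 3 clustered members were 2-fold higher (all genes 14.0%), and with no filter 7 of 43 were (all genes 16.02%). After removal of the GC content and length trend 7 members (43.8%, against 10.6% of all genes) were higher, with CDH11, CDHR3 and PCDHB2 and without PCDHGC3. The log2 ratio of CDH24 then moved to 1.06, CDH10 to 1.90, PCDH18 to 1.77 and PCDH1 to -0.39. The median log2 ratio of all members was 0.74, and 0.50 with a pseudocount of 1, 1.37 at 5 FPKM and 0.15 with no filter. For classical cadherins these were 0.88, 1.59 and 0.39, for clustered ones 0.15 with no filter, and for non-clustered ones 0.38 at 0.5 FPKM and 0.58 at 5 FPKM. Of all genes, the setting moved the 2-fold higher count between 430 (5 FPKM) and 4008 (no filter). The 2-fold lower count moved between 507 (counting interval) and 2619 (no filter). At 1.5-fold 2541 genes were higher and 2735 lower. As deposited 1414 genes were 2-fold higher and 1065 lower, and with totals made equal these were 1767 and 760.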

Other observations

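Pseudogenes and antisense genes named for cadherins and protocadherins were nearly empty. Of 17 such genes 11 had no reads in either library. Among the other 6 the pseudogene PCDHB18P of the beta array had 1 read in scrambled and 9 in shSIK2 (9-fold, 1.25 to 394). PCDHGB9P had 2 and 5 reads, PCDHGB8P 2 and 1, PCDHB19P 0 and 3, PCDHB17P 0 and 1 and PCDH8P1 1 and 1. The antisense genes of PCDH9 and CDH23 had no reads, so the reads of PCDH9 stand without a counted antisense partner.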
